A study of Mus musculus with 49 samples.

Results

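The cells described here are diploid mouse embryonic stem (ES) cells grown in 2i that the authors placed in late S phase and G2. They were chosen by the authors' group name, itself made from measured values, as the cells of the diploid 2i table that passed the authors' quality control and are in the group late-S/G2, which gave 649 of 1992 passing cells in that table and of 4098 passing cells in the whole series. The group and the order of the cells along the cycle rest on measured contact features of the same cells, so differences between late-S/G2 and its neighbours, and courses along the order, are given below as a description, with no test. Tests were run only between sort conditions and between tables.

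Contacts between pieces of chromosomes were measured by Hi-C in single cells, and the series, by its title, follows chromosome organisation over the cell cycle. The 2i cells come from 1 diploid F1 hybrid line of the strains 129/SV-Jae and castaneus, kept without feeder cells in 2i, a medium in which kinase inhibitors replace serum and hold ES cells undifferentiated. All cells were fixed with formaldehyde before the Hi-C steps, and for some libraries nuclei were first sorted on Hoechst, a DNA stain, and on an antibody to Geminin. The late-S/G2 cells fall into the deposited conditions 1CD_lS_G2 with 253 cells, NoSort with 182, 1CD_mS with 170, 1CDU with 24, 1CD_eS with 14 and 1CD_G1 with 6. The condition names are not explained. From their letters, 1CD_mS is read here as a mid-S gate, 1CD_lS_G2 as a late-S/G2 gate and NoSort as no gate. For comparison, 322 late-S/G2 cells of the same line grown with serum on feeders, then depleted of feeders and sorted for Oct-3/4, and 340 late-S/G2 cells of a haploid line from either medium were used. The tables hold no expression values, so the cell type could not be checked against marker genes.

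As background, DNA is copied during S phase in a set order of regions, so that for a time early-replicating regions are present in more copies than late ones. Once copying is complete, in G2, all regions are again at equal copy number, and the cell then prepares to condense its chromosomes for mitosis. Geminin is absent in G1 and present from S phase until mitosis, and Hoechst reports DNA content, so a sort on both separates phases without use of contacts. In Hi-C, active and inactive regions contact their own kind (compartments), and boundaries between domains limit contacts across them (insulation).

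A late-S/G2 cell had a median of 268336 contacts, with 25th and 75th percentiles of 130539 and 371229. The median was 340809 in the late-S/G2 gate, 307580 in the mid-S gate and 138054 in NoSort. Libraries with at least 10 such cells in 1 condition numbered 9 and held 600 of the 649, and their late-S/G2 cells summed to between 1569066 and 40791019 contacts. In the list of cells, the same 192 index pairs were used in more than 1 library, and no pair was repeated within a sequencing lane. Each lane carried a single library, and effects of lane and of library cannot be told apart. Whether libraries stem from different cultures is not stated, and p-values therefore measure the spread among these libraries alone, which may be technical. No late-S/G2 cell had a chromosome coverage deviation of 1 or more, and the highest was 0.966.

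Late-S/G2 cells had a high share of contacts in the near band, a range of short distances whose limits are not stated. The near-band share was at least 76.9%, had a median of 82.2% and reached 88.3%. Early-S cells spanned 62.2% to 80.2% and pre-M cells, those just before mitosis, 53.7% to 84.9%. The share in the band named mitotic, whose limits are not stated either, ran from 5.46% to 11.7% in late-S/G2 cells and began at 9.92% in pre-M cells. At the early edge, the last early-S cell of the order had a near-band share of 78.0% and a replication score of 1.44, and the first late-S/G2 cell 78.1% and 1.52. At the late edge, the last late-S/G2 cell had a near-band share of 88.3% and a mitotic-band share of 5.75%, and the first pre-M cell 83.7% and 9.92%. The near-band share alone does not draw the early edge, since 114 late-S/G2 cells lay within the early-S range and 122 early-S cells within the late-S/G2 range.

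The order within late-S/G2 was almost fully given by 2 columns. In a linear fit over the 649 cells, the near-band share accounted for 89.4% of the variance of the rank along the order, and the near-band share with the replication score for 98.1%. The 11 folding columns together reached 98.1% as well. The replication score is the authors' score of replication state. Its definition is not given in the sources used here. Its lowest cell in the table is at 1, a G1 cell, and late-S/G2 cells ran from 1.03 to 1.52.

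Along the order the replication score went from high to near the G1 level. Late-S/G2 cells were averaged in 10 bins of 64 or 65 cells. The first bin had a mean score of 1.33 and the last 1.09, against a G1 mean of 1.08, and each bin was lower than the one before it. The midpoint between the first bin and the G1 mean was 1.21, and the sixth bin, centred at 55% of the order, was the first with a mean below it. With 5 bins the crossing lay at 50% and with 20 bins at 42.5% of the order, each against a midpoint from its own first bin (1.201 and 1.210). With 20 bins the score did not fall at every step. The largest single step, -0.049, led into the fourth bin. These bins pool conditions, so the crossing depends on their mix. The first bin held 30 mid-S gate and 2 late-S/G2 gate cells, and the last 1 and 42. In the first of 3 equal segments of the order, libraries 25 and 26 of the late-S/G2 gate averaged 1.200 and 1.195, below the midpoint. In the last segment, libraries 23 and 24 of the mid-S gate averaged 1.22 (12 cells) and 1.19 (4 cells). The 4 NoSort libraries went from between 1.28 and 1.32 to between 1.10 and 1.15. The course was opposite to that of early S, where the bins went from 1.07 to 1.34. Within libraries of at least 20 cells, Spearman's rho between score and order was negative in 8 of 8 in late-S/G2 (median -0.66, from -0.82 to -0.34) and positive in 6 of 6 in early-S (median 0.88). Because the score helps to set the order, these values describe the order and carry no p.

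Contacts between chromosomes made up a smaller share, and far contacts spanned shorter distances, later in the order. The share of contacts between chromosomes went from 6.65% ± 1.44 (SD over 65 cells) in the first bin to 4.03% ± 0.740 (64 cells) in the last. These bins pool conditions, and the first held 11 cells of 1CDU where the last held none. Within libraries, the last of 3 equal segments of the order differed from the first by -1.23 points on average (SD 0.405, n = 8). In early-S bins the share stayed between 6.57% and 7.63%. Its rho with the order was negative in 8 of 8 libraries in late-S/G2 (median -0.51) and had no common sign in early-S, with 4 of 6 negative (median -0.11). The far distance, read from its name as the mean distance of far contacts, went from 27.3 Mb ± 3.33 to 22.7 Mb ± 2.40. This was negative in 8 of 8 libraries as well, with a median rho of -0.30, and 5 of 6 libraries were negative in early-S. Within libraries the last segment differed from the first by -1.64 Mb on average (SD 0.496, n = 8). The far distance was 16.04 Mb on average in the 28 pre-M cells, and their share between chromosomes was 2.26%.

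Compartment scores were higher late in the order, with much overlap between cells. The cis compartment score, which measures how strongly active and inactive regions are segregated within chromosomes, went from 0.436 ± 0.0840 in the first bin to 0.493 ± 0.0979 in the last. Its within-library rho had a median of 0.19 and was positive in 7 of 8 libraries. The trans score, the same between chromosomes, went from 0.324 ± 0.0830 to 0.364 ± 0.114, with a median rho of 0.16 and 7 of 8 positive. The alignment score, whose definition is not given, went from 0.284 ± 0.0959 to 0.340 ± 0.0825 and was positive in 5 of 8 libraries. In pre-M cells the cis and trans compartment scores were on average 0.279 and 0.108, below the mean of every late-S/G2 bin.

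Insulation was lower after the first bin, with little further difference between bin means. Its early-S bins went from 2.55 to 2.22, the first late-S/G2 bin was at 2.27 ± 0.113, and the other 9 lay between 2.20 and 2.21. Within libraries its rho with the order had a median of -0.09 in late-S/G2, with 7 of 8 libraries negative, against -0.49 in early-S, with 6 of 6 negative. The loop enrichments, read as log2 values and named EE and LL without explanation, had no common course. EE went from 0.59 ± 0.29 to 0.68 ± 0.32, with 5 of 8 libraries positive, and LL from 0.81 ± 0.46 to 0.69 ± 0.40, with 5 of 8 negative. Contacts per cell went from 219500 to 281790 over the same bins and correlated positively with the order in 8 of 8 libraries (median rho 0.14). The part of depth in the courses is given by partial correlation on contacts, which moved the median rho of no measure by more than the SD between libraries.

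**Figure D1:**
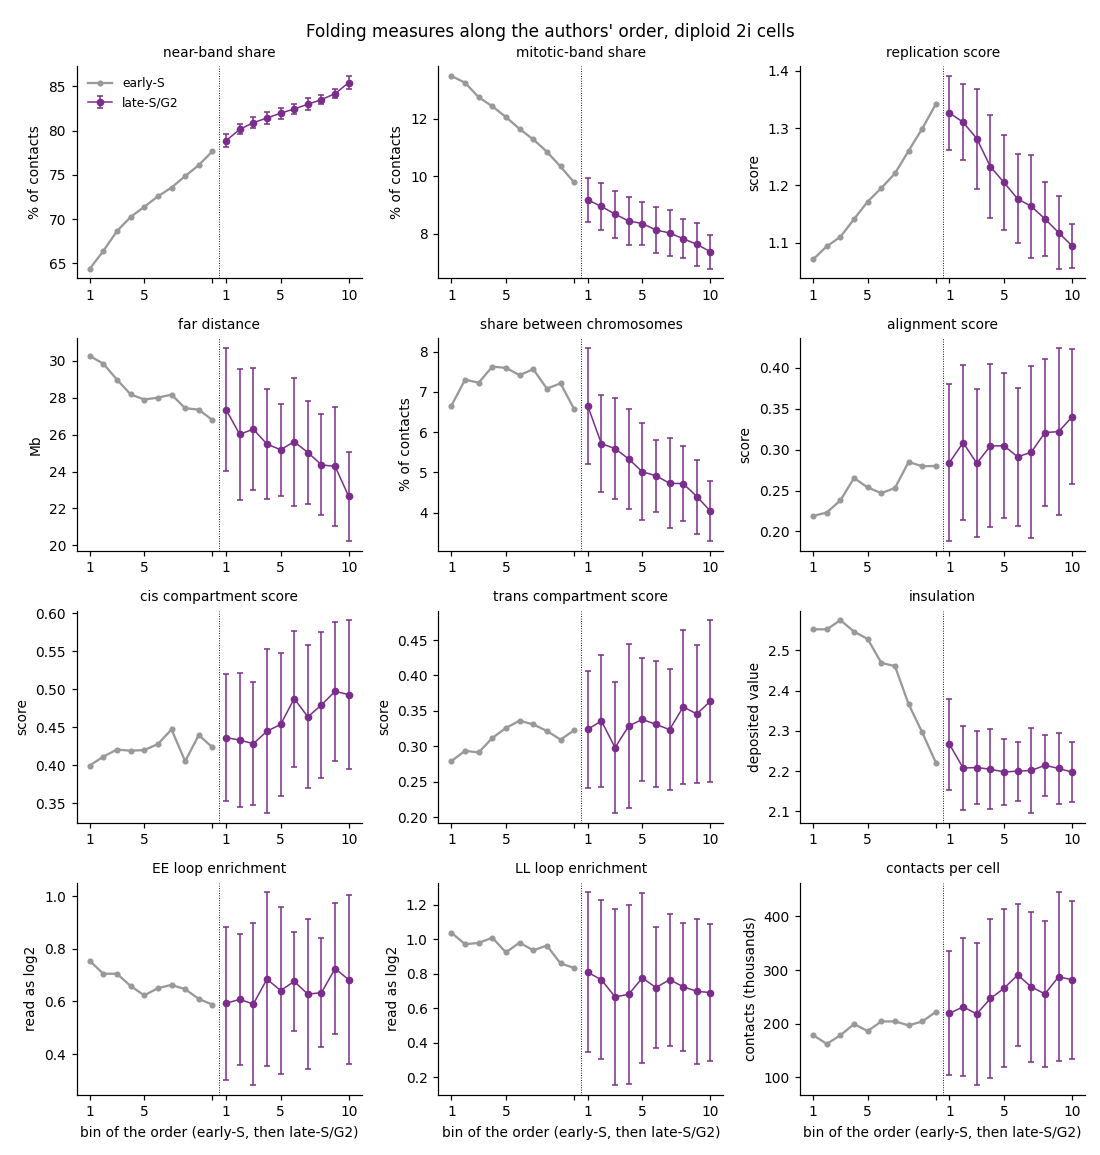
Mean of each folding measure and of contacts per cell in 10 bins of early-S cells (grey) and 10 bins of late-S/G2 cells (purple, bars are the SD over cells) along the authors' order, with units on each vertical axis. The replication score climbs through early-S to 1.34 and goes from 1.33 to 1.09 through late-S/G2, the share between chromosomes goes from 6.65% to 4.03%, and insulation has bin means between 2.20 and 2.21 from the second late-S/G2 bin on. Bins pool conditions, whose mix changes along the order.

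Cells of 1 library differed widely in most measures. The SD over cells, as a median over the 9 libraries, was 1.80 percentage points for the near-band share, 1.00 point for the share between chromosomes, 2.91 Mb for the far distance, 0.0916 for the replication score and 0.0928 for the cis compartment score. For EE and LL loop enrichment it was 0.30 and 0.43 on the log2 scale. These medians pool conditions. For the replication score the SD was 0.0637 to 0.0701 in libraries of the 2 gates and 0.0916 to 0.103 in NoSort. For EE enrichment it was 0.216 to 0.253 against 0.346 to 0.380, and for the near-band share 1.55 to 1.80 against 1.86 to 2.26 points. The SDs of the far distance, cis compartment score, LL enrichment and share between chromosomes overlapped. Any part of depth, lower in NoSort, was not tested. The within-library SD exceeded the SD between library means for every folding measure except the share between chromosomes, where it was 0.693 times as large. The library means of that share include library 11 of 1CDU, at 8.74% over 10 cells, while the others lay between 3.94% and 5.81%. Between-library differences made up 44.8% of the variance over cells for the replication score and 32.9% for the share between chromosomes, but 1.48% for the trans compartment score and 1.27% for the mitotic-band share. Differences between conditions alone made up 44.3%, 32.2%, 1.23% and 1.05%, so little lay between libraries of the same condition. Late-S/G2 was narrower than early-S in measures that the grouping restricts and in some others. The SD was lower than in early-S cells of the same library in 9 of 9 libraries for the near-band share (median ratio 0.507), the mitotic-band share (0.592), the share between chromosomes (0.536) and insulation (0.558). It was lower in 4 of 9 for the cis compartment score and for LL enrichment.

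Few pairs of measures moved together from cell to cell. Of 55 pairs of folding measures, 5 had a median Spearman's rho over 8 libraries of 0.3 or more in size, and 14 had the same sign in all 8. The near-band and mitotic-band shares had the strongest relation, -0.72, and both are shares of the same contacts. The far distance and the alignment score followed at -0.65, between -0.77 and -0.58 over the libraries. The near-band share correlated at -0.45 with the replication score and at -0.43 with the share between chromosomes. The replication score and the share between chromosomes correlated at 0.37. Neither loop enrichment reached 0.2 in size with any folding measure. All points of a library share its depth and preparation. Contacts per cell correlated at -0.51 with the share without digestion, a quality measure of the authors, and at -0.30 with the replication score, and the part of depth in the pair values was not tested.

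**Figure D2:**
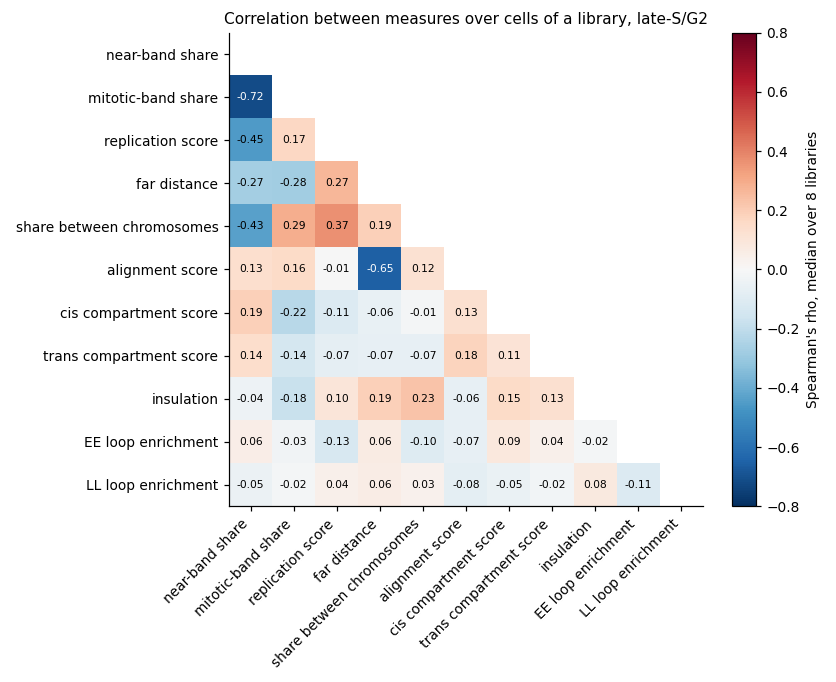
Spearman's rho between each pair of the 11 folding measures over late-S/G2 cells of a library, as the median over 8 libraries with at least 20 cells (colour from -0.8 to 0.8, value printed). Most squares are pale, and the dark ones are the near band against the mitotic band (-0.72) and the far distance against the alignment score (-0.65).

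The gates were compared next, since a sort on Hoechst and Geminin does not use contacts. The question was how far the gate and the group made from contacts match. Of passing cells, 81.0% in library 25 and 74.1% in library 26 of the late-S/G2 gate were in late-S/G2, with exact Clopper-Pearson 95% intervals of 74.0% to 86.8% and 66.6% to 80.6%. In the mid-S gate the shares were 65.8% in library 23 and 61.6% in library 24. In NoSort they were 50.0%, 42.3%, 43.0% and 37.2%. The mid-S and late-S/G2 gates thus both held mostly late-S/G2 cells. Library 15_16_17_18, at 5 of 5 cells in the mid-S gate and 5 of 6 in the late-S/G2 gate, was left out. So was library 27 of NoSort, at 5 of 16. Among libraries with at least 20 passing cells, no library of 1 of these 3 conditions overlapped those of another. The means were 77.5% ± 4.91 (SD, n = 2), 63.7% ± 2.97 (n = 2) and 43.1% ± 5.27 (n = 4), and an exact permutation test of F over the 420 assignments of libraries gave p = 0.00476, the smallest this design can give. In the other conditions late-S/G2 was rare in libraries with at least 20 passing cells. Its share was 1.49% and 2.84% in the G1 gate, 3.25% and 4.90% in the condition 1CD_eS and 2.46% to 12.99% in 1CDU. Library 15_16_17_18 had 2 of 6 cells in late-S/G2 in 1CD_eS. Other cells in libraries 25 and 26 of the late-S/G2 gate included early-S (12 and 17 cells), pre-M (8 and 15) and G1 (2 and 1). The remaining passing cells of these libraries were in the group post-M, by its name just after mitosis. Binomial intervals cover counting error only.

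**Figure D3:**
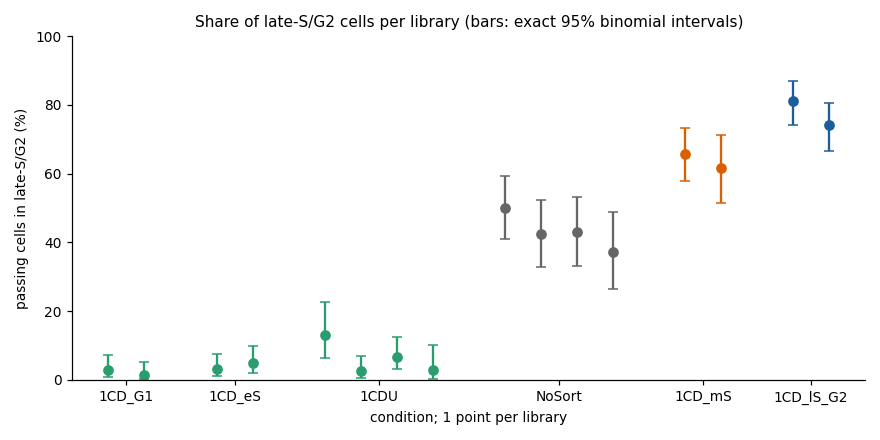
Share of passing diploid 2i cells that are in late-S/G2 (vertical axis, percent), with 1 point per library with at least 20 passing cells and exact 95% binomial intervals as bars. The points of the late-S/G2 gate (74.1% and 81.0%) lie above those of the mid-S gate (61.6% and 65.8%), which lie above NoSort (37.2% to 50.0%).

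Within late-S/G2, cells from the mid-S gate sat early in the order and those from the late-S/G2 gate late. Of mid-S gate cells, 57.6% lay in the first of 3 equal segments of the order and 9.41% in the last. Of late-S/G2 gate cells, 10.7% lay in the first segment and 53.0% in the last. NoSort cells spread evenly, with 31.9%, 33.5% and 34.6% in the 3 segments. The 24 cells of 1CDU and the 14 of 1CD_eS lay mostly in the first segment, with 20 and 12 cells there and none in the last.

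Library means were compared between the mid-S gate (libraries 23 and 24), the late-S/G2 gate (25 and 26) and NoSort (28_29, 30_31, 32_33 and 34_35) for 16 measures, which are the 11 folding measures, the place along the order and 4 measures of library quality. An exact permutation test of F over libraries with Benjamini-Hochberg adjustment over the 16 put 4 of them (25%) past an adjusted p of 0.05. They were the place along the order, the replication score, the near-band share and the share between chromosomes, each with an exact p of 0.00476 and an adjusted p of 0.0190. The first 3 of these helped to set the group and the order, whereas the gate did not. The mid-S and late-S/G2 gates alone did not overlap in 9 of 16 measures (56.2%), but 2 libraries against 2 allow no exact p below 0.333, and 2 against 4 none below 0.0667.

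The replication score differed by 14.6 times the pooled SD between libraries. It was 1.287 and 1.292 in the mid-S gate, 1.14 and 1.12 in the late-S/G2 gate, and 1.21, 1.20, 1.22 and 1.23 in NoSort. The conditions did not overlap, and NoSort lay between the gates. The means were 1.29 ± 0.00364 (n = 2), 1.13 ± 0.0119 (n = 2) and 1.21 ± 0.0125 (n = 4). The pooled SD, 0.0112, rests on these 8 library means alone. The 2 batches of a NoSort library differed by 0.0389 on average and by up to 0.0849. Counted by cell, 221 of 253 cells (87.4%) of the late-S/G2 gate were below the midpoint of 1.21, as were 85 of 182 (46.7%) in NoSort and 15 of 170 (8.82%) in the mid-S gate. By library these shares were 83.6% and 90.8% in the late-S/G2 gate, 10.6% and 6.56% in the mid-S gate and between 41.9% and 49.2% in the 4 NoSort libraries.

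The gates differed in replication score within parts of the near-band range as well. The cells were split into 3 equal parts by near-band share, a split added after the data were seen. In the lowest, 76.9% to 81.3%, the mean score was 1.32 in the mid-S gate (libraries at 1.31 and 1.33) and 1.16 in the late-S/G2 gate (1.14 and 1.17). In the middle part the values were 1.27 and 1.12, and in the highest 1.25 and 1.12. NoSort was closer to the mid-S gate in the lowest part, at 1.28 ± 0.0306 (n = 4), and closer to the late-S/G2 gate in the highest, at 1.15 ± 0.0204. With the 3 parts weighted equally, the difference between the late-S/G2 and mid-S gates was -0.147. The exact permutation test over the 3 conditions, which does not compare the 2 gates alone, gave an adjusted p of 0.0254. The parts do not fully equalise the near-band share, in which the gates still differed by 0.351 points at this weighting. Both columns helped to set the order. Within libraries, the near-band share and the score were only weakly tied in the late-S/G2 gate, with rho of -0.14 and -0.19, against -0.42 and -0.59 in the mid-S gate and -0.66 to -0.44 in NoSort. Those differences in rho were not tested.

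**Figure D4:**
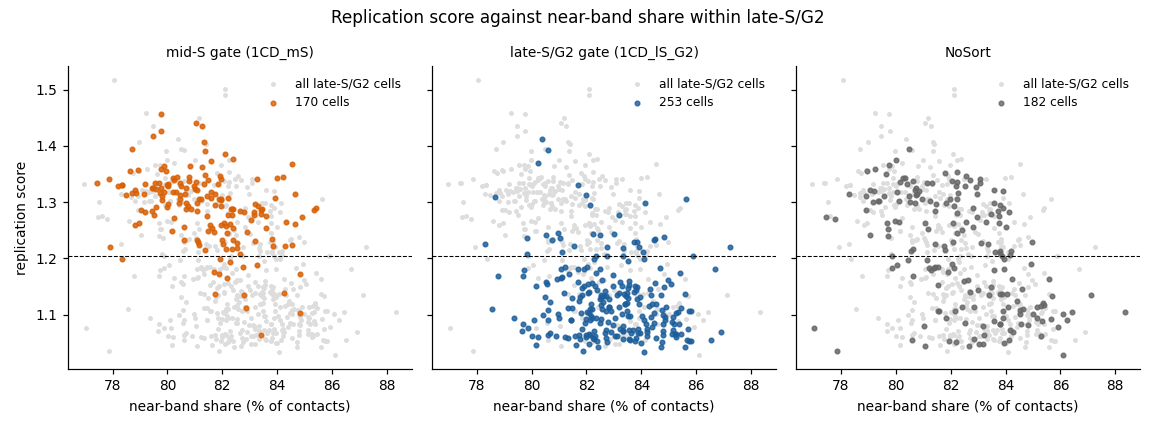
Replication score (vertical axis) against near-band share (horizontal axis, percent of contacts) for single late-S/G2 cells of the mid-S gate, the late-S/G2 gate and NoSort, over all 649 cells in grey, with the midpoint of 1.21 as a dashed line. The 170 mid-S gate cells lie mostly above the line and the 253 late-S/G2 gate cells mostly below it at like near-band shares, and NoSort covers both areas.

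The place along the order was 33.2% and 31.6% in the mid-S gate and 64.6% and 66.4% in the late-S/G2 gate, and 49.9% to 51.7% in NoSort. Between the gates this is a difference of 33.05 percentage points of the order. The near-band share was 81.4% and 81.3% in the mid-S gate, 82.86% and 82.88% in the late-S/G2 gate and 82.3% to 82.6% in NoSort. The gates differed by 1.52 percentage points, less than the SD of 1.80 points among cells of a library. With the 3 segments of the order weighted equally the sign of this difference turned, to -0.262 points. The exact permutation test over the 3 conditions then gave an adjusted p of 0.254.

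The share between chromosomes was 5.78% and 5.81% in the mid-S gate, 4.93% and 4.81% in the late-S/G2 gate, and 4.38%, 4.53%, 4.43% and 3.94% in NoSort. NoSort was thus not between the gates here but below both. The means were 5.79% ± 0.0265 (n = 2), 4.87% ± 0.0818 (n = 2) and 4.32% ± 0.260 (n = 4). At equal weight of the 3 segments of the order, the difference between the late-S/G2 and mid-S gates was -0.467 points. The exact permutation test over the 3 conditions, NoSort included, then gave an adjusted p of 0.0190, which is not a test of the 2 gates alone.

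NoSort also differed from both gates in library quality. The share without digestion was 48.8% ± 1.38 in NoSort, against 37.2% ± 0.176 and 36.4% ± 1.06 in the mid-S and late-S/G2 gates. The share of duplicated fragment ends was 5.92% ± 1.41 against 2.95% ± 0.206 and 2.99% ± 0.148. Contacts per cell averaged 159363 ± 25832 against 294205 ± 14977 and 305653 ± 18423. None of these passed the test (exact permutation test, adjusted p of 0.0508 each), though no NoSort library overlapped either gate. Whether they have a part in the low share between chromosomes of NoSort was not tested. The 2 gates overlapped in all 4 quality measures, contacts per cell among them. Among cells between the 25th and 75th percentiles of contacts, the differences between the gates were -0.163 in replication score, 31.3 points in the order, 1.42 points in near-band share and -0.699 points in share between chromosomes. None of the 16 measures then passed by the exact permutation test (lowest adjusted p of 0.0762), and 5 had an unadjusted p under 0.05.

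The other folding measures did not pass. The cis compartment score was 0.457 and 0.452 in the mid-S gate, 0.480 and 0.488 in the late-S/G2 gate and 0.399 to 0.450 in NoSort, with an adjusted p of 0.0508 by the exact permutation test. The trans compartment score averaged 0.338, 0.344 and 0.320 in the same order, also at 0.0508. The far distance was 26.1 Mb and 25.98 Mb in the mid-S gate and 24.6 Mb and 24.2 Mb in the late-S/G2 gate, without overlap. The NoSort range of 23.7 Mb to 25.4 Mb spanned the late-S/G2 gate, and the adjusted p was 0.160. Insulation (0.166), LL enrichment (0.260), EE enrichment (0.299), the mitotic-band share (0.424) and the alignment score (0.543) had higher adjusted p-values.

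**Figure D5:**
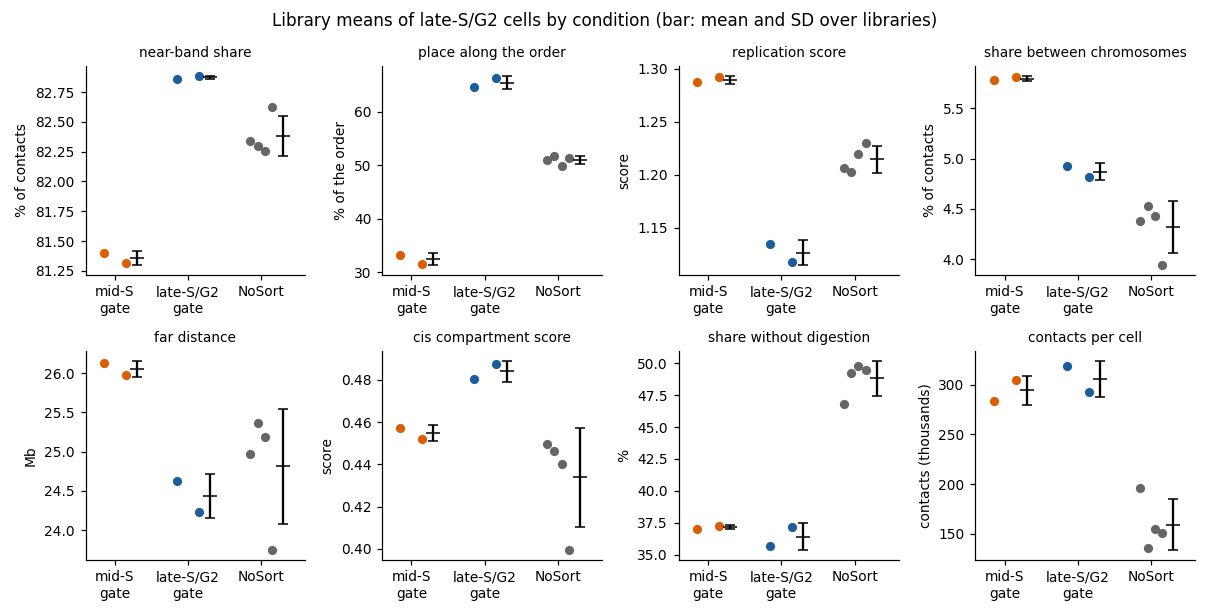
Library means of late-S/G2 cells in the mid-S gate (orange, 2 libraries), the late-S/G2 gate (blue, 2) and NoSort (grey, 4) for 8 measures with units on the vertical axes, with the mean and SD over libraries as a black bar. NoSort lies between the gates in near-band share, place along the order and replication score, and below both in the share between chromosomes, while it is above both in the share without digestion (48.8% against 37.2% and 36.4%).

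In some measures the means of the batch numbers within a NoSort library differed. Each of the 4 NoSort libraries is made of 2 batch numbers. The place along the order was 59.7% in batch 30 (31 cells) and 32.6% in batch 31 (13 cells), which together give library 30_31. The mean size of the difference between the 2 batches of a library was 14.1 percentage points, against an SD of 0.771 between the 4 library means. For the near-band share the figures were 1.07 and 0.167 points, and for the duplicated share 2.76 and 1.41 points. For the replication score they were 0.0389 and 0.0125. The mean difference between batches was above the SD between libraries in 10 of 16 measures. It was not in the other 6, among them the far distance (0.376 Mb against 0.731 Mb), the cis compartment score (0.0141 against 0.0233) and the share without digestion (0.672 against 1.38 points). These 2 figures are not alike, since a difference of 2 single batches is set against an SD of means over 2 batches. The first would tend to be larger even for unrelated batches, so the count of 10 does not show batches unusually far apart. Batch means also rest on only 12 to 33 cells. The batch of lower number had the higher duplicated share in 4 of 4 libraries. With batch numbers as units, the exact permutation test left the near-band share with an adjusted p of 0.120. That fit counts the 2 batches of a NoSort library as separate units, 12 in all, although they belong to 1 library, so its p-values are too small.

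Calls between conditions depended on which libraries were used. Without library 25, 28_29, 30_31 or 32_33, no measure passed by the exact permutation test (lowest adjusted p of 0.0508), with 6 to 8 of the 16 at an unadjusted p under 0.05. Without library 26 the share between chromosomes did not pass (adjusted p of 0.0508). Without library 34_35, 10 passed, among them the far distance and the cis compartment score. With 7 libraries the smallest exact p was 0.00952. The difference in replication score between the gates ranged only from -0.172 to -0.155 over these fits.

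Late-S/G2 cells were last set against late-S/G2 cells of the other tables, only for shares, distances and counts, because scores may be scaled per table. Libraries with at least 10 late-S/G2 cells numbered 10 in 2i, 7 in serum and 9 in the haploid table. Of 10 tests, 6 (60%) passed an adjusted p of 0.05 in an exact permutation test of the difference of means, but 4 of these 6 were measures of library quality. The far distance of 2i cells, 25.2 Mb ± 0.957 (n = 10), was above that of serum cells at 23.8 Mb ± 0.661 (n = 7, exact permutation test, adjusted p of 0.0125). It was below that of haploid cells at 26.5 Mb ± 0.440 (n = 9, exact permutation test, adjusted p of 0.0111). The libraries overlapped in both comparisons, with 2i from 23.7 Mb to 26.98 Mb, serum from 22.8 Mb to 24.4 Mb and haploid from 25.9 Mb to 27.2 Mb. With a minimum of 5 cells the difference from haploid cells was -0.357 Mb (exact permutation test, adjusted p of 0.489). With NoSort as the only 2i libraries, the difference from serum was 1.05 Mb (exact permutation test, adjusted p of 0.0539).

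The share between chromosomes averaged 5.31% ± 1.37 in 2i libraries, 6.16% ± 0.362 in serum libraries and 6.64% ± 1.85 in haploid ones, and neither difference passed (exact permutation test, adjusted p of 0.146 and 0.130). In 2i, library 11 of the condition 1CDU stood apart at 8.74% with 10 cells, against 3.94% to 5.81% in the other 9. Without it, 2i was lower, with differences of -1.23 points from serum and -1.71 points from haploid cells, and both passed (exact permutation test, adjusted p of 0.00437 and 0.0297). With the 4 NoSort libraries left out instead, a fit added after the data were seen, the differences were -0.193 points from serum and -0.672 points from haploid cells (exact permutation test, adjusted p of 0.811 and 0.616), and with NoSort as the only 2i libraries that from serum was -1.84 points (0.00505). The measures of quality moved with the tables too. The share without digestion was 40.2% ± 8.19 in 2i libraries against 32.2% ± 1.23 in serum and 29.8% ± 5.93 in haploid libraries, with adjusted p of 0.0380 and 0.0174. The difference from serum did not pass without any 1 of the 2i libraries 28_29, 30_31, 32_33 and 34_35 or the serum libraries 2_14, 3, 4, 7 and 8 (adjusted p up to 0.0747), with medians over cells (0.0542) or in the shared range of contacts (0.0677). Outside NoSort the share without digestion differed by 2.21 points from serum and 4.62 points from haploid cells (exact permutation test, adjusted p of 0.399 and 0.243). Contacts per cell averaged 223734 in 2i and 115841 in haploid libraries (adjusted p of 0.0174), and the duplicated share 4.08% and 1.54% (0.000650). With NoSort as the only 2i libraries the difference in contacts was 43522 (exact permutation test, adjusted p of 0.284). The 2i late-S/G2 cells come mostly from the mid-S and late-S/G2 gates and NoSort, so medium or line, gate and preparation cannot be told apart in these comparisons. Near-band shares, which helped to choose the cells in each table, averaged 82.0% in 2i libraries against 81.3% with serum and 81.5% in the haploid line.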

How the data were processed

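Single-cell Hi-C features of late-S/G2 cells were read from 3 deposited tables of cells (diploid 2i, diploid serum, haploid), with reads aligned by Bowtie2 to mm9 per the submitters' processing notes. Contacts per cell are a deposited count. Each deposited share is a fraction, printed as a percentage, and neither band limits nor denominators are stated. Each deposited score (replication, compartments, alignment, insulation, chromosome coverage deviation) has an undefined scale. Loop enrichments were deposited on what, judged by their range, is a log2 scale. The deposited far distance was converted from bp to Mb. The authors' order, group, condition and quality flag were used as given.

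Batch numbers were joined to libraries through the deposited list of cells, and library 27 by its title alone. Values are means over the cells of a library within a condition, with at least 10 cells, or 20 for courses and shares. Conditions were tested by exact permutation of F, tables by exact permutation of the difference of means, both two-sided, with Benjamini-Hochberg adjustment over 16 and 10 tests. For the tables, a library's cells were pooled over conditions. Courses, spread and pair correlations have no test. Every measure was to be described. In the condition test those past an adjusted p of 0.05 were to be named first. No gene was to be named, and no marker list applied. The late-S/G2 cells, measures and comparisons were chosen with earlier results of these data known.

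The condition test was tried on simulated libraries in groups of 2, 2 and 4. In shifted measures 1 group of 2 was raised and the group of 4 lowered, by 4 SD each. The test called 99.9% of these and 2.75% of unchanged measures. With 10 against 7 libraries the table test called 99.6% of measures shifted by 2.5 SD and 4.4% of unchanged ones. In both, as many measures were shifted as unchanged. Smaller shifts, or fewer shifted measures, were not simulated. The 4 nuclear RNA samples were not used here. Tables were handled with pandas 2.3.3 and numpy 2.4.6 in Python 3.11.15, correlations computed with scipy 1.17.1 and plots drawn with matplotlib 3.10.9.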

Additional observations from a re-analysis of the deposited data

Results flagged for a closer look

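In the diploid 2i table, library 11 of the condition 1CDU had a mean share between chromosomes of 8.74% over its 10 late-S/G2 cells, and its gap to the other 9 libraries, which lay between 3.94% and 5.81%, was 0.61 of the whole range. It was the only one of 32 groups of library values checked in this way, and chance marks about 1 in 20. The library also had the lowest share without digestion among the 2i libraries, 25.6%. Its part in the high share between chromosomes was not tested.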

How the results depend on the processing

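The difference between the gates in near-band share was 1.42 points, in replication score -0.163, in share between chromosomes -0.699 points and in place along the order 31.3 points among cells with contacts between the 25th and 75th percentiles, where 0 measures passed by the exact permutation test (5 at an unadjusted p under 0.05). With a minimum of 5 cells, 8 measures passed, and the difference in duplicated share turned to -0.0481 points. That fit has 11 units and counts library 15_16_17_18, with 5 cells in each gate, as a separate unit in both gates, so its p-values need caution. With 3 segments of the order weighted equally, the near-band share turned to -0.262 points, the mitotic-band share to 0.598 points and the trans compartment score to -0.0119. The near-band share no longer passed at 0.351 points with 3 parts of its own range weighted equally, nor at 1.52 points with batch numbers as units, and both of these fits were added after the data were seen. Leaving out each library gave 0 to 10 measures passing, differences of 1.47 to 1.56 points in near-band share, -0.172 to -0.155 in replication score, -0.982 to -0.866 points in share between chromosomes and 32.1 to 33.9 points in the order. Between tables, the far distance difference from haploid cells was -0.357 Mb with a minimum of 5 cells (exact permutation test, adjusted p of 0.489) and -1.03 Mb without NoSort, an alternative added after the data were seen in which 3 measures passed. From serum cells it was 1.05 Mb with NoSort alone. The cause of these changes was not tested. The difference in share of late-S/G2 cells between the late-S/G2 gate and NoSort kept its direction and side of the threshold in every alternative run, from 20.9 points in the same middle range of contacts, taken over all passing cells, to 44.0 points without pre-M and post-M cells. A minimum of 20 cells left the same libraries in the condition test. No paired analysis was possible because the conditions share no library number with at least 10 late-S/G2 cells, and equal numbers in the diploid and haploid titles are not said to mark a shared preparation. The number of libraries, 2 per gate, limits the precision.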
